A study of Homo sapiens with 12 samples.

Results

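The PGC1 coactivators and the nuclear factors that work with them in making mitochondria were followed as 8 genes, PPARGC1A, PPARGC1B, PPRC1, ESRRA, NRF1, GABPA, TFAM and TFB2M. They were found by symbol among the 23273 genes listed for the human melanoma cell lines COLO858 and MMACSF, and all 8 were listed in both. RNA of each line was sequenced after DMSO, the vehicle, and after 24 h and 48 h in 0.2 μM vemurafenib, an inhibitor of the mutant RAF kinase of these lines, with 2 replicates per group and 12 libraries in all. The study sequenced COLO858 to find genes tied to its adaptation to RAF inhibition, with MMACSF for comparison. The methods give 24 h and 48 h for DMSO as for the drug, but the labels do not say to which of these times the DMSO pair belongs, and both treatment times of a line are compared with the same DMSO pair.

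PGC1α (PPARGC1A), PGC1β (PPARGC1B) and PRC (PPRC1) are coactivators, proteins that do not bind DNA themselves but dock on transcription factors and raise their output. The factors they dock on include ERRα (ESRRA), an orphan nuclear receptor, and NRF1, a DNA-binding factor of many nuclear genes for mitochondrial proteins. GABPA is the DNA-binding subunit of GABP, also called NRF2, an ETS factor with a similar set of targets. TFAM and TFB2M carry the programme into the organelle, where TFAM packages mitochondrial DNA and opens its promoters and TFB2M is the initiation partner of the mitochondrial RNA polymerase. In melanocytic cells PPARGC1A is a known target of MITF, the lineage factor that binds E-boxes.

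The promoters of 7 of the 8 genes, all but NRF1, were matched in RefSeq (GRCh38.p14), with 2 start sites for PPARGC1A. The words nearer and farther tell these 2 apart and do not place either outside the gene. Starts without an entry, where a gene has them, were not searched. Windows from 250 bases before to 50 bases after the start were searched on both strands for the NRF1 core GCNTGCGC, the ETS core CGGAAG, the E-boxes CACGTG and CATGTG, and the ERR core AAGGTCA. The upstream 250 bases of both PPARGC1A starts, the coactivator whose RNA moved most, and of TFAM and TFB2M, the factors that enter the organelle, are shown 5′ to 3′ with matches in capitals.
PPARGC1A, start nearer the gene body, chr4:23881102-23881351, minus strand: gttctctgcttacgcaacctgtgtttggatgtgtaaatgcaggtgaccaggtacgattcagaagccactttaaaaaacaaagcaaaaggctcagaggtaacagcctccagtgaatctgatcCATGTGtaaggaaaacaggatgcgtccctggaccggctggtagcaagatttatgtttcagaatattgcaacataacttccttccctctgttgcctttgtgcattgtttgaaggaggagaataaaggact
PPARGC1A, start farther upstream, chr4:24472906-24473155, minus strand: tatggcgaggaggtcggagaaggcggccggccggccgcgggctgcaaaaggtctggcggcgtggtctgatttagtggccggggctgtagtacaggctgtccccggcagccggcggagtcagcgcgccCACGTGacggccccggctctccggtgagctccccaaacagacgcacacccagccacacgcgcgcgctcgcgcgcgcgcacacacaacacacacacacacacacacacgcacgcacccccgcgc
TFAM, chr10:58385160-58385409, plus strand: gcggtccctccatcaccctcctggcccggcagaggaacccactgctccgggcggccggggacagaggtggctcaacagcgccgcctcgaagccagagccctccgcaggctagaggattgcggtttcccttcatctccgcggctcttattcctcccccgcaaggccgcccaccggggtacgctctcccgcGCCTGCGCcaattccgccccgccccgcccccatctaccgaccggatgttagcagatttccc
TFB2M, chr1:246566262-246566511, minus strand: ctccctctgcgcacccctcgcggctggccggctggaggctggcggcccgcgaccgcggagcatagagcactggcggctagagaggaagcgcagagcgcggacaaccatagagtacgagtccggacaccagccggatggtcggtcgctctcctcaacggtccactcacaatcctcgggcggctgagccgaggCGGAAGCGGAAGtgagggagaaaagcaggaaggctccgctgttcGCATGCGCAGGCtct
The PPARGC1A windows hold an E-box each, CATGTG starting 129 bases before the nearer start and CACGTG starting 123 bases before the farther one. Over all 35116 RefSeq windows of this length, 11.1% hold CATGTG and 7.26% hold CACGTG. TFAM holds an NRF1 core, GCCTGCGC, 61 bases before its start. TFB2M holds 2 overlapping NRF1 cores, GCATGCGC and GCGCAGGC, that start 15 and 11 bases before its start, and 3 ETS cores, of which 1 lies after the start. The NRF1 core is found in 11.98% and the ETS core in 19.5% of all windows. ESRRA, whose window is not shown, holds CATGTG and 2 NRF1 cores, and GABPA holds 1 ETS core. No window of PPARGC1B or PPRC1 holds any of these letters, and none of the 8 entries holds the ERR core, which 3.92% of all windows do. For PPARGC1B and PPRC1 only the start with an entry was searched, which need not be the main start of the gene. Each match is a description of letters only.

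On GRCh37, the sequence that hg19 names, GENCODE places the genes at chr4:23756664-23905712 (PPARGC1A, minus strand), chr5:149109861-149234585 (PPARGC1B, plus) and chr10:103892751-103910090 (PPRC1, plus). ESRRA lies at chr11:64072969-64084215, NRF1 at chr7:129251561-129396922, GABPA at chr21:27106881-27144771 and TFAM at chr10:60145105-60158980, all on the plus strand. TFB2M lies at chr1:246703863-246729563 on the minus strand. The promoter windows are on GRCh38.p14 and were not converted, so their places relative to these spans were not measured. Taken at face value, the nearer PPARGC1A window lies within the span of the gene, not upstream of it. The values are gene sums and do not separate start sites or isoforms.

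Levels are given in FPKM, a fragment count divided by transcript length and by library size, which allows genes of a library to be compared. The sum of FPKM ran from 670310 to 1013038 in COLO858 and from 726083 to 856083 in MMACSF, and 11679 to 11972 genes per library reached 1 FPKM. Read depth is unknown. The libraries numbered 2 stood apart from those numbered 1: MIR4461 alone made up 25.8% to 43.4% of their FPKM sum, against 14.1% to 19.0%. Among the members, PPARGC1A, GABPA, TFAM and TFB2M read higher in replicate 2 in 6 of 6 groups and ESRRA lower in 6 of 6, a within-group spread of up to 1.57-fold for TFAM, and its part in the results was not tested beyond the fits given in the closing section. As a check of the drug, 9 of 10 genes of MAPK output, among them ETV4, SPRY4, EGR1 and FOSL1, fell at each time in each line. As a check of the labels, SOX10, S100B, DCT and PMEL were expressed in all libraries, from 63.3 FPKM upward. MLANA and TYR, likewise genes of pigment cells, were at most 1.21 FPKM in COLO858, where they stand near 0, and at least 178 FPKM in MMACSF. Of the markers of other cells, KRT5 was listed at 0 in 12 of 12 libraries, and KRT14, PTPRC, PECAM1 and CDH5 stayed at or below 0.448 FPKM. The fibroblast markers COL1A1, COL1A2, PDGFRB and DCN reached at most 3.33 FPKM. In bulk RNA, a change in the share of cells that express a gene cannot be told apart from a change per cell.

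In COLO858, PPARGC1A RNA rose 4.29-fold at 24 h of vemurafenib and was back at its DMSO level at 48 h. PPARGC1A measured 5.98 and 8.15 FPKM under DMSO, 26.0 and 34.6 FPKM at 24 h, and 5.94 and 7.34 FPKM at 48 h. Both 24 h libraries lay above the other 4 libraries of the line, and the 48 h libraries overlapped those under DMSO. The difference in log2(FPKM + 1) at 24 h was 1.96 with an SE of 0.23 and a 95% interval of 1.38 to 2.53 (limma, Benjamini-Hochberg adjusted p = 0.00465), rank 117 of 522 rises called at that time. At 48 h it was -0.07 (SE 0.23, adjusted p = 0.848). From 24 h to 48 h it was -2.03 (SE 0.23, adjusted p = 0.0120), which is outside the threshold of 0.01, although no library of one time reached the range of the other.

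In MMACSF no difference in PPARGC1A passed. Levels of the 2 lines come from separate tables and are not compared. PPARGC1A stood at 6.63 and 9.09 FPKM under DMSO, 6.66 and 9.62 at 24 h and 5.03 and 6.33 at 48 h. The DMSO and 24 h libraries overlapped, while both 48 h libraries lay below both DMSO libraries. The log2 difference was 0.04 at 24 h (95% interval -0.56 to 0.64, adjusted p = 0.928 by limma), with a sign that turned to -0.06 after rescaling the libraries to a common median ratio. At 48 h it was -0.40 (95% interval -1.003 to 0.20, adjusted p = 0.277).

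**Figure D1:**
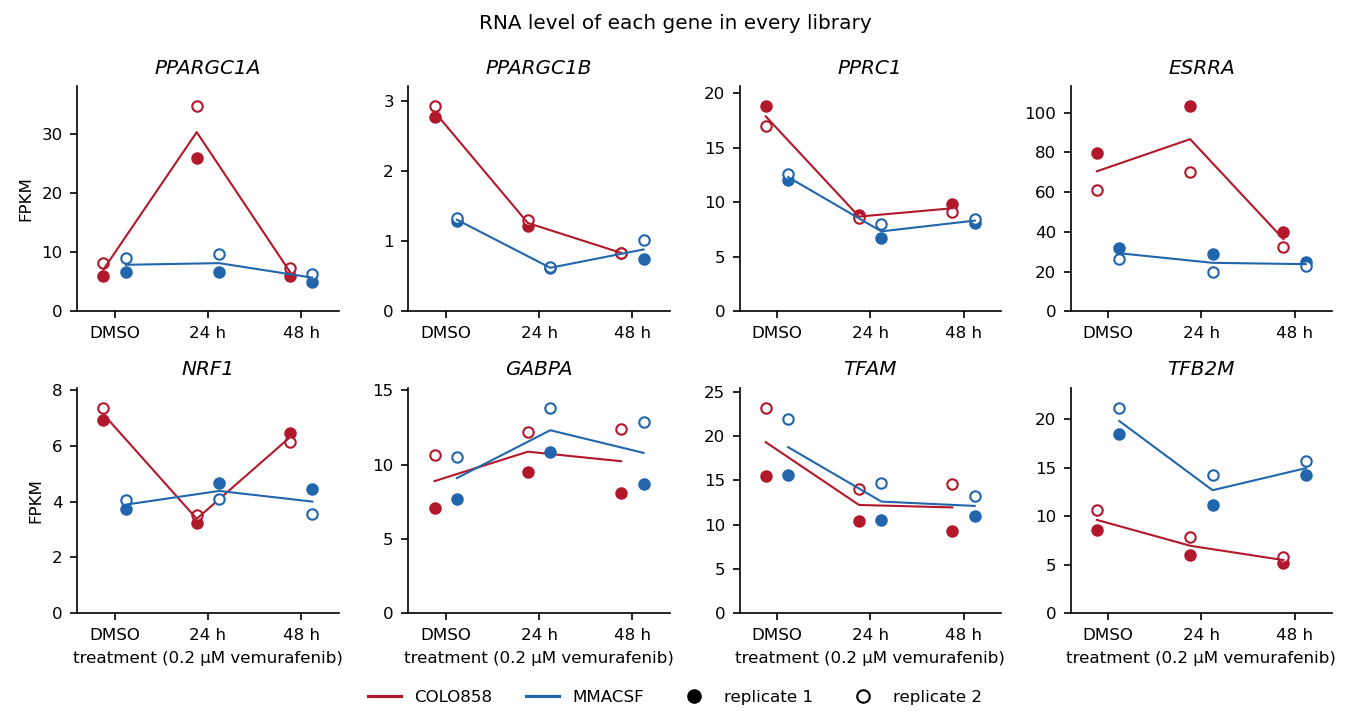
FPKM of each of the 8 genes in every library against treatment, with a separate scale per gene, filled points for replicate 1, open points for replicate 2 and lines through the group means of COLO858 (red) and MMACSF (blue). The COLO858 PPARGC1A points at 24 h, 26.0 and 34.6 FPKM, stand above the others of that line, and NRF1 of COLO858 dips at the same time.

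The other coactivators read lower under the drug in both lines. PPARGC1B in COLO858 measured 2.76 and 2.92 FPKM under DMSO, 1.22 and 1.30 at 24 h, and 0.833 and 0.832 at 48 h. The 3 groups did not overlap and each later group was lower. At 48 h PPARGC1B had fallen 3.42-fold, by 1.07 on the log2 scale (SE 0.13, adjusted p = 0.00541 by limma), while at 24 h the difference of -0.77 (SE 0.13) had an adjusted p of 0.0131, or of 0.00753 after rescaling. In MMACSF it measured 1.28 and 1.33 FPKM under DMSO, 0.615 and 0.624 at 24 h, and 0.742 and 1.02 at 48 h. Both treated groups lay below DMSO there, with log2 differences of -0.51 (adjusted p = 0.0775) and -0.30 (adjusted p = 0.224) that did not pass.

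PPRC1, a coactivator known as a growth-induced relative of PGC1α, measured 18.8 and 16.97 FPKM under DMSO in COLO858, 8.83 and 8.52 at 24 h and 9.79 and 9.10 at 48 h. All 4 treated libraries lay below both controls. It fell 2.06-fold at 24 h, by 0.96 on the log2 scale (SE 0.14, adjusted p = 0.00802 by limma). At 48 h the log2 difference was -0.85 (SE 0.14) with an adjusted p of 0.0114. In MMACSF PPRC1 measured 12.1 and 12.5 FPKM under DMSO, 6.68 and 7.97 at 24 h and 8.13 and 8.49 at 48 h. The treated libraries were again all below the controls, with log2 differences of -0.68 (adjusted p = 0.0268) and -0.51 (adjusted p = 0.0506).

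Since FPKM is scaled by length, the coactivators can be added within a library. Under DMSO in COLO858 the sum over PPARGC1A, PPARGC1B and PPRC1 was 27.5 and 28.0 FPKM, of which PPARGC1A made up 21.7% and 29.1%. At 24 h the sum was 36.0 and 44.5 FPKM and the PPARGC1A share 72.1% and 77.9%. At 48 h the sum was 16.6 and 17.3 FPKM and the share 35.9% and 42.5%. PPRC1 was therefore the most abundant coactivator RNA in COLO858 under DMSO and at 48 h, and PPARGC1A at 24 h. In MMACSF the PPARGC1A share was 33.2% and 39.6% under DMSO, 47.7% and 52.8% at 24 h and 36.2% and 40.0% at 48 h. These shares are descriptions and were not tested.

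**Figure D2:**
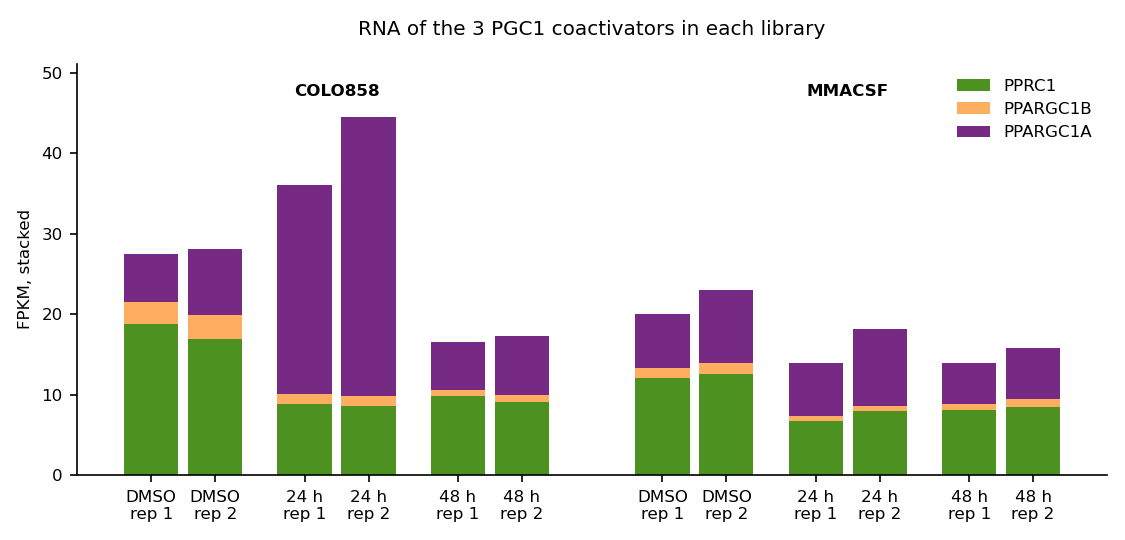
Stacked bars of the FPKM of PPRC1 (green), PPARGC1B (orange) and PPARGC1A (purple), 1 bar per library, grouped by line and treatment. The purple share is 72.1% and 77.9% in the COLO858 24 h libraries and at most 52.8% in the other libraries.

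Among the DNA-binding partners, NRF1 was the member that dipped at 24 h. In COLO858 it measured 6.93 and 7.36 FPKM under DMSO, 3.25 and 3.52 at 24 h and 6.48 and 6.16 at 48 h. The 24 h libraries lay below the others without overlap, and the 48 h libraries stood between them and DMSO. NRF1 fell 2.11-fold at 24 h, by 0.89 on the log2 scale (SE 0.14, adjusted p = 0.00989 by limma), a value just inside the threshold. Its log2 difference was -0.15 at 48 h (adjusted p = 0.453) and 0.74 from 24 h to 48 h (SE 0.14, adjusted p = 0.0428). In MMACSF NRF1 measured 3.75 and 4.05 FPKM under DMSO, 4.68 and 4.10 at 24 h, and 4.44 and 3.57 at 48 h, with log2 differences of 0.14 and 0.03 (adjusted p = 0.587 and 0.921).

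ESRRA was the most abundant member in all 6 groups. In COLO858 it measured 79.8 and 61.0 FPKM under DMSO, 103 and 70.1 at 24 h and 40.1 and 32.5 at 48 h. The DMSO and 24 h libraries overlapped, and both 48 h libraries lay below all 4 others. The log2 difference was 0.28 at 24 h (SE 0.25, adjusted p = 0.445 by limma), -0.93 at 48 h (SE 0.25, adjusted p = 0.0479) and -1.21 from 24 h to 48 h (SE 0.25, adjusted p = 0.0565), none past the threshold. In MMACSF ESRRA measured 32.1 and 26.3 FPKM under DMSO, 28.9 and 19.8 at 24 h and 24.7 and 22.7 at 48 h, with log2 differences of -0.27 and -0.28 (adjusted p = 0.413 and 0.372). ESRRA overlaps TRMT112, a methyltransferase cofactor gene on the opposite strand, which stood far higher, at 230 to 673 FPKM. The library kit marks strand and TopHat was run at its defaults, but whether the count used strand is not stated, so it is not known if reads of the pair were kept apart. TRMT112 differed by -0.92 on the log2 scale at 24 h in COLO858, where ESRRA differed by 0.28, and by -0.69 at 48 h.

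GABPA showed no difference that passed. It measured 7.10 and 10.7 FPKM under DMSO in COLO858, 9.53 and 12.2 at 24 h and 8.07 and 12.4 at 48 h. In MMACSF it measured 7.67 and 10.5, 10.8 and 13.8, and 8.68 and 12.9 FPKM in the same order. The groups overlapped except that both MMACSF 24 h libraries lay above DMSO. The log2 differences ran from 0.18 to 0.41, with adjusted p from 0.303 to 0.685 (limma). GABPA also overlaps a gene on the opposite strand, listed as ATP5J, an ATP synthase subunit, which stood at 124 to 322 FPKM.

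TFAM read lower under the drug in both lines, but no difference passed in the fit used here. With the replicate number as a block, given in the closing section, each difference from DMSO passed, where 26.1% to 45.0% of all genes were called. In COLO858 it measured 15.5 and 23.1 FPKM under DMSO, 10.4 and 14.01 at 24 h and 9.27 and 14.6 at 48 h. In MMACSF it measured 15.6 and 21.9, 10.5 and 14.7, and 11.0 and 13.2 FPKM. Both treated groups lay below DMSO without overlap in each line, although the gap between the higher treated and the lower control library was small. TFAM read higher in replicate 2 in 6 of 6 groups. Against the DMSO library of the same number, its ratio ran from 0.599 to 0.672 in COLO858 and from 0.604 to 0.705 in MMACSF. At 24 h the log2 difference was -0.61 in COLO858 and -0.54 in MMACSF, and at 48 h -0.66 and -0.58, with adjusted p from 0.141 to 0.200 (limma).

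TFB2M also read lower under the drug in both lines. In COLO858 it measured 8.60 and 10.6 FPKM under DMSO, 6.01 and 7.91 at 24 h and 5.20 and 5.74 at 48 h. In MMACSF it measured 18.5 and 21.2, 11.2 and 14.2, and 14.3 and 15.7 FPKM. All 8 treated libraries lay below both controls of their line. The log2 differences were -0.42 (adjusted p = 0.164) and -0.71 (adjusted p = 0.0481) in COLO858 and -0.61 (adjusted p = 0.0540) and -0.38 (adjusted p = 0.149) in MMACSF by limma, so none passed. ESRRA, GABPA and TFAM have processed copies elsewhere in the annotated genome, so short reads of these genes may have been split or lost.

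By the limma test, 3 of 8 members were called at 24 h in COLO858, PPARGC1A up and PPRC1 and NRF1 down, where 9.82% of all genes tested were called. At 48 h in COLO858, 1 of 8 was called, PPARGC1B down, where 9.47% of all genes were. Between 48 h and 24 h in COLO858, 0 of 8 were called, where 1.38% of all genes were called, with 3 of 8 at an unadjusted p under 0.05 against 20.1% of all genes. In MMACSF 0 of 8 were called at 24 h, where 5.83% of all genes were, with 3 of 8 at that unadjusted p against 36.0% of all genes. At 48 h 0 of 8 were called, where 8.83% were, with 1 of 8 at that p against 38.9%, and between the times 0 of 8, where 0.222% were, with 0 of 8 at that p against 6.98%. The calls in COLO858 rest on 2 libraries per group, and leaving out any 1 of the 6 libraries of the line left 0 members called, with adjusted p of PPARGC1A at 24 h from 0.0128 to 0.0331 and log2 differences from 1.75 to 2.16. In those fits a group holds 1 library, and the share of all genes called was itself only 0.898% to 4.32% at 24 h and 1.08% to 3.02% at 48 h. Fitting only the 4 libraries of a comparison also left 0 called, with PPARGC1A at an adjusted p of 0.0101.

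Counted by libraries instead, 5 members lay wholly below DMSO at 24 h in COLO858 (29.0% of all genes did) and 1 wholly above (34.1% did). At 48 h in COLO858, 6 lay below (31.4% of all genes) and 0 above (29.9%), the exceptions being PPARGC1A and GABPA, which overlapped DMSO. In MMACSF at 24 h, 4 lay below (25.8% of all genes) and 2 above (34.0%), and at 48 h, 6 lay below (28.8%) and 0 above (35.7%). At 24 h the median log2 difference of the 8 members was -0.51 in COLO858 (all genes tested, 0.06) and -0.39 in MMACSF (all genes, 0.07). At 48 h it was -0.68 in COLO858 (all genes, -0.01) and -0.34 in MMACSF (all genes, 0.06).

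**Figure D3:**
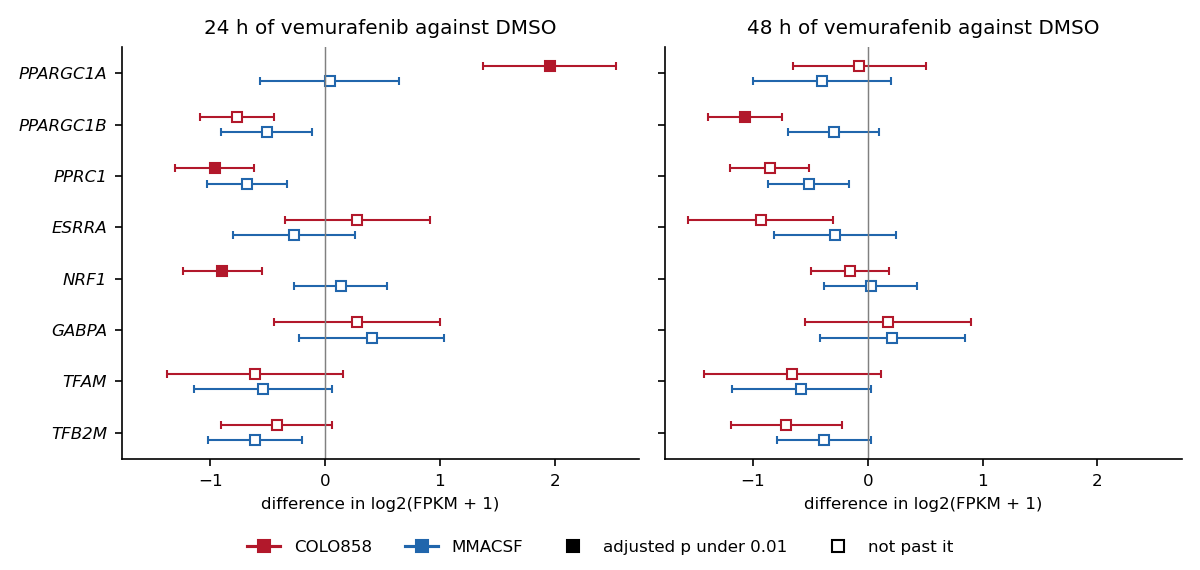
Difference in log2(FPKM + 1) of each member from DMSO at 24 h (left) and 48 h (right), with 95% intervals from limma, in COLO858 (red) and MMACSF (blue), filled where the adjusted p is under 0.01. PPARGC1A of COLO858 stands at 1.96 at 24 h and -0.07 at 48 h, while its interval in MMACSF spans 0 at both times.

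The responses of the lines were compared directly, each against its own DMSO libraries. For PPARGC1A the 24 h response was higher in COLO858 by 1.92 on the log2 scale (SE 0.35, 95% interval 1.12 to 2.71, adjusted p = 0.0125 by limma). For NRF1 it was -1.03 (SE 0.18, 95% interval -1.44 to -0.62, adjusted p = 0.01002). Neither passed the threshold, NRF1 lying just outside it, and 0 of 8 members were called where 3.71% of all genes were, with 2 at an unadjusted p under 0.05 against 21.2% of all genes. At 48 h the widest gap was that of PPARGC1B, -0.77 (SE 0.15, adjusted p = 0.0105), again with 0 of 8 called against 7.48% of all genes and 1 at an unadjusted p under 0.05 against 27.5%. The 24 h interval of TFAM, -1.03 to 0.89, and that of GABPA, -1.07 to 0.81, were too wide to show whether the lines responded alike.

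Within each group the genes were also ordered by their mean FPKM. ESRRA was highest and PPARGC1B lowest in all 6 groups, each clear of its neighbour in both libraries. In COLO858 PPARGC1A ranked 7 of 8 under DMSO, not separable from NRF1 just above it. It ranked 2 at 24 h, clear of TFAM below it, and 5 at 48 h, not separable from NRF1. In MMACSF it ranked 6, 5 and 6, and PPRC1 4, 6 and 5. TFB2M ranked 2 in all 3 groups of MMACSF and 4, 6 and 7 in COLO858.

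MITF, the lineage factor named above, measured 56.2 and 79.2 FPKM under DMSO in COLO858, 93.0 and 125 at 24 h, and 57.0 and 77.6 at 48 h. Both 24 h libraries lay above the others, as for PPARGC1A, with a log2 difference of 0.68 (SE 0.26, adjusted p = 0.117 by limma) that did not pass, and of -0.00395 at 48 h (adjusted p = 0.997). In MMACSF it measured 174 and 244, 195 and 248.6, and 209 and 268 FPKM, with the groups overlapping. Centred on the DMSO mean of each line, PPARGC1A and MITF had a Pearson r of 0.80 over the 12 libraries, PPARGC1A and NRF1 one of -0.91, PPARGC1B and PPRC1 0.91, and TFAM and TFB2M 0.89. These are descriptions over libraries that share treatments and replicate numbers.

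Of the other partners and regulators of PGC1, 27 genes were listed. In COLO858, 0 rose and 1 of 25 tested fell at 24 h, PPARG (-1.46), the adipogenic nuclear receptor. At 48 h 0 rose and 2 fell, MYC (-1.68), a growth factor-driven transcription factor, and PPARG (-1.58). Of all genes, 9.82% were called at 24 h and 9.47% at 48 h in this line. In MMACSF MYC alone fell of 23 tested, by 1.74 at 24 h and by 1.23 at 48 h on the log2 scale, and 0 rose. There 5.83% and 8.83% of all genes were called. The list's median at 24 h was 0.22 in COLO858 and 0.18 in MMACSF, and at 48 h -0.01 and 0.20.

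The genes that express and copy mitochondrial DNA, 19 in all and all tested, had a median at 24 h of -0.47 in COLO858 and -0.29 in MMACSF, and at 48 h of -0.46 and -0.27, lower than over all genes in each of the 4 comparisons. In COLO858 SLIRP, a stabiliser of mitochondrial mRNA, fell at 24 h (-0.79) and at 48 h (-0.86), and TFB1M, the rRNA methyltransferase related to TFB2M, fell at 48 h (-1.59). In MMACSF SSBP1, the single-strand binding protein of mitochondrial DNA, fell at 48 h (-0.93). In these comparisons 9.82%, 9.47% and 8.83% of all genes were called. SSBP1 also read lower in COLO858 without a call, from 376 and 449 FPKM to 250 and 283, then 227 and 268. SLIRP and TFB1M read lower in MMACSF without a call. SLIRP there went from 197 and 172 FPKM under DMSO to 82.0 and 74.4 at 24 h and 86.5 and 51.5 at 48 h. At 24 h 0 were called in MMACSF, with 5 at an unadjusted p under 0.05 against 36.0% of all genes. No rise among the 19 was called in these comparisons, although 5 to 6 of them had a positive difference in each.

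The respiratory chain, cytochrome c and citric acid cycle list of 25 genes had lower medians in MMACSF. In COLO858 0 of 25 were called at 24 h or 48 h by limma, with 3 and 8 at an unadjusted p under 0.05, below the 40.3% and 39.3% of all genes at that p. The median was 0.06 and -0.19, where the first turned to -0.05 after rescaling. In MMACSF 24 of 25 had a negative difference at each time, with medians of -0.31 and -0.55. At 24 h 0 were called there, with 12 at an unadjusted p under 0.05 (36.0% of all genes), and at 48 h 5 fell (8.83% of all genes were called). Among the 5 were IDH3A of the citric acid cycle (-1.22), ATP5B of the ATP synthase (-0.98) and UQCRC1 of complex III (-0.98). In the direct comparison the difference was more positive in COLO858 for 25 of 25 genes at 24 h and 24 of 25 at 48 h, with 0 called at either time and 12 and 4 at an unadjusted p under 0.05 (21.2% and 27.5% of all genes). The genes are not independent of each other, so this count is a description.

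In the fatty acid oxidation and uncoupling list of 12 genes, 8 were tested in COLO858 and 9 in MMACSF. CPT1B, which passes fatty acids into the mitochondrion, rose at 24 h in COLO858, from 5.58 and 4.96 FPKM to 14.6 and 12.2 (log2 difference 1.20). At 48 h 0 were called there (9.47% of all genes were), although CPT1B, at 9.38 and 10.0 FPKM, still lay above DMSO. CPT1B also read higher under the drug in MMACSF, without a call. It measured 16.2 and 12.8 FPKM under DMSO, 19.9 and 18.6 at 24 h and 31.6 and 26.7 at 48 h. In MMACSF 0 were called at 24 h (5.83% of all genes were). At 48 h PDK4, the kinase that shuts pyruvate dehydrogenase, fell (-1.53), where 8.83% of all genes were called. The list's median at 24 h was 0.42 in COLO858 and -0.03 in MMACSF, and at 48 h 0.24 and -0.15. Of 8 antioxidant genes, 0 were called in any of the 4 comparisons with DMSO by limma, with medians from -0.46 to -0.07. An unadjusted p under 0.05 was found for 3 and 4 in COLO858 (40.3% and 39.3% of all genes) and 1 and 4 in MMACSF (36.0% and 38.9%).

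In the import, dynamics and quality control list, PINK1, the kinase that marks damaged mitochondria for removal, stood apart. It measured 8.88 and 6.60 FPKM under DMSO in COLO858, 31.9 and 28.4 at 24 h and 55.1 and 48.2 at 48 h. The 3 groups did not overlap, and the log2 differences from DMSO were 1.84 and 2.60 (adjusted p = 0.00311 and 0.00130 by limma). PHB, prohibitin, was the other call of the 20 genes tested in COLO858 and fell at 48 h (-1.05). In that line 1 of 20 was called at 24 h (9.82% of all genes) and 2 at 48 h (9.47%). TOMM40 and HSPD1 read lower there without a call. TOMM40 went from 172 and 138 FPKM under DMSO to 75.7 and 59.3 at 48 h, and HSPD1 from 403 and 574 to 217 and 303. In MMACSF 3 of 21 fell at 24 h (5.83% of all genes were called) and 5 at 48 h (8.83%), and no rise was called. The falls were led at both times by the import channel gene TOMM40 (-1.42 and -1.34), the chaperone gene HSPD1 (-1.35 and -1.30) and PHB (-1.03 and -1.14). PINK1 measured 19.0 and 16.3 FPKM there under DMSO, 32.5 and 25.2 at 24 h and 26.4 and 23.7 at 48 h. Both treated groups lay above DMSO, with log2 differences of 0.67 and 0.49 (adjusted p = 0.0476 and 0.0966 by limma) that did not pass. The median of this list at 24 h was -0.38 in COLO858 and -0.31 in MMACSF, and at 48 h -0.64 and -0.39. At 24 h 14 of 20 genes in COLO858 and 15 of 21 in MMACSF had a negative difference, and at 48 h 17 and 13.

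**Figure D4:**
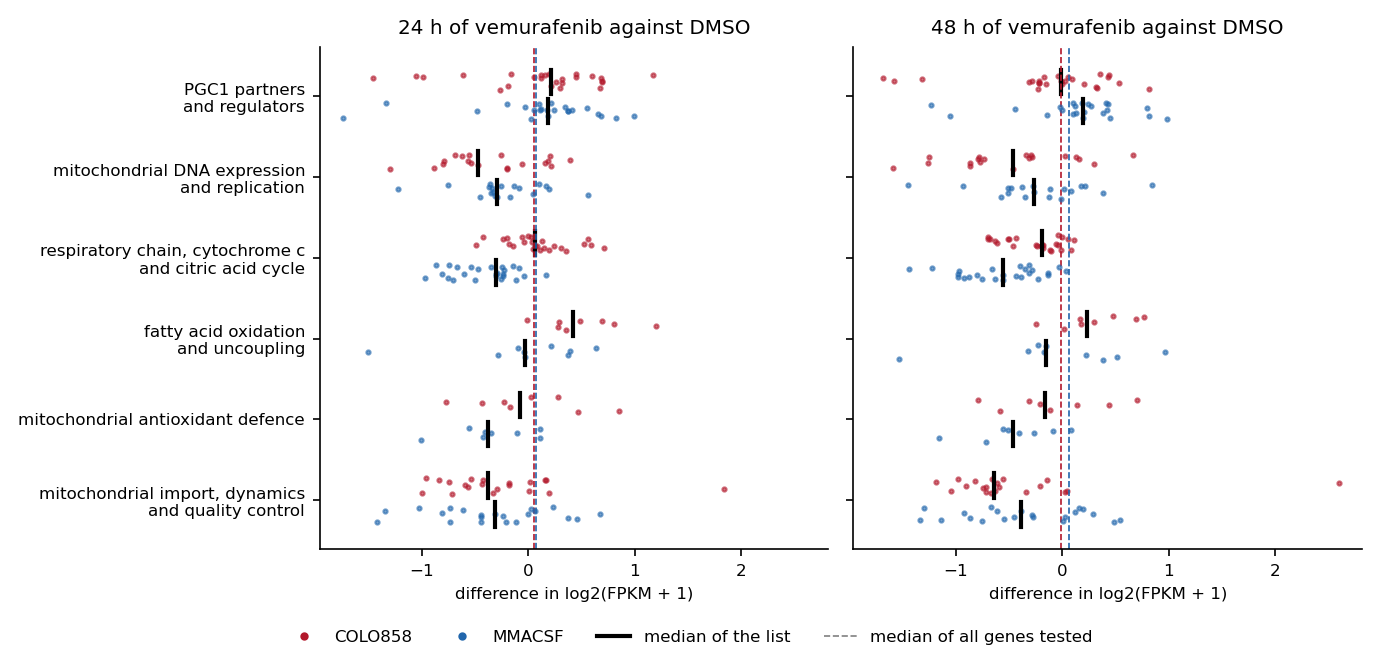
Difference in log2(FPKM + 1) from DMSO at 24 h (left) and 48 h (right) for each tested gene of 6 lists (1 point per gene, COLO858 red, MMACSF blue), with the median of each list as a black bar and that of all genes tested as a dashed line. The respiratory chain list has medians of 0.06 and -0.19 in COLO858 and -0.31 and -0.55 in MMACSF, and the point far to the right is PINK1 of COLO858.

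Among the 11700 genes tested in both lines, those whose pattern over the 12 libraries was most like that of PPARGC1A, by Pearson r of log2(FPKM + 1) centred on the DMSO mean of each line, were USP54 (0.99), ATP2A2 (0.97), EFR3B (0.96), KIAA0564 (0.95) and PFKM (0.95). ATP2A2 is the calcium pump SERCA2 and PFKM is muscle-type phosphofructokinase. The genes most like PPRC1 were LAS1L, EGR1, SPRY4, DUSP4 and STK32B (each with an r of 0.98 to 0.99). Of these, LAS1L serves ribosome assembly, EGR1 is an immediate early factor, and SPRY4 and DUSP4 are feedback inhibitors of MAPK signalling. The members of these lists were selected for their r, which is therefore a description.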

How the data were processed

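RNA was measured in 12 libraries, 6 of each line, grouped by the labels. The values deposited by the authors are FPKM, one table per line. Per the study's methods, reads were mapped to hg19 with TopHat and summed per gene with Cuffdiff, whose versions, annotation, strand setting and library scaling are not given in the sources used here. Whole reads could not be recovered from the FPKM. Each of the 12 columns entered the fits, leaving 0 unused.

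Values were tested as log2(FPKM + 1) with limma 3.58.1 in R 4.3.3, by a linear model of 3 groups per line with a mean-variance trend, over genes whose mean reached 1 FPKM in some group, two-sided, with Benjamini-Hochberg adjustment over all of them and a threshold of 0.01. Differences between the lines were tested over 12 libraries as an interaction, and levels were not tested between the tables. MLANA, TYR, PPARG and PDK4 were set side by side only as near 0 or expressed. The pseudocount shrinks the log2 differences of low genes such as PPARGC1B. The labels do not say that replicates were independent cultures beyond separate plates in the methods, so p-values measure the spread between these samples. The script was tested on simulated data. From each list, up to 3 rises and 3 falls past the threshold were named by size, besides all members, MITF and the 5 genes most like PPARGC1A and PPRC1. Members and lists were chosen with earlier results of these data known. Alternatives were pseudocounts of 0.1 and 0.01, no minimum, a minimum of 10 FPKM, a block, median-ratio rescaling, no trend, only the groups compared, and leaving out each library. Promoters were searched and figures drawn in Python 3.11.15 with pandas 2.3.3 and matplotlib 3.10.9.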

Additional observations from a re-analysis of the deposited data

Results flagged for a closer look

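No member met a rule for a closer look, since groups of 2 libraries were not tested for outlying samples and no member's response differed between the lines past the threshold. Of the genes set beside them, 3 that both lines express responded differently by limma's interaction term, given as the COLO858 response minus the MMACSF response in log2(FPKM + 1). SPRY4 gave -1.25 at 24 h (adjusted p = 0.00164) and -2.14 at 48 h (adjusted p = 5.33e-05). FOSL1 gave 1.56 at 48 h (adjusted p = 0.00188) and PINK1 gave 2.12 at 48 h (adjusted p = 0.000966). For PPARG and PDK4, listed at or near 0 in one line, the term repeats the change of the other line and is no comparison of responses. PPARG gave -1.46 at 24 h (adjusted p = 0.000612) and -1.63 at 48 h (adjusted p = 0.000171), and it is listed at 0 in both DMSO and both 24 h libraries of MMACSF. PDK4 gave 1.48 at 24 h (adjusted p = 0.00697) and 1.504 at 48 h (adjusted p = 0.00385), and it is listed at 0 in all 4 treated libraries of COLO858 and at most at 0.0230 FPKM under DMSO.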

How the results depend on the processing

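With 2 libraries per group, the member calls depended on the fit. Against 3 members called at 24 h in COLO858, 1 was called with no minimum, 0 with only the groups compared and 4 with median-ratio rescaling, which adds PPARGC1B (adjusted p = 0.00753). Against 1 at 48 h, 0 were called with a minimum of 10 FPKM, which leaves 5 members tested, and 0 with only the groups compared. Against 0 between the times in COLO858, median-ratio rescaling called 1, PPARGC1A (adjusted p = 0.00573). Against 0 for the line difference at 24 h, rescaling called 1, PPARGC1A (adjusted p = 0.00406), and leaving out the trend called 1, NRF1 (adjusted p = 0.00816). Against 0 for the line difference at 48 h, PPARGC1B made 1 call with no minimum, with rescaling and without the trend. The cause was not tested. Leaving out any library gave 0 to 0 members called in each of the 8 comparisons, in fits that leave a group with 1 library, assumed to vary like the others. The share of all genes called in them was low too, at most 4.32% and 3.02% in COLO858 at 24 h and 48 h and 0.339% between the times, 0.793%, 3.40% and 0.365% in MMACSF, and 2.93% and 6.59% for the line differences, so these counts say little about the members.

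Replicate numbers are shared by the groups, but nothing says that a number marks a shared culture or day. Over genes, libraries with one number deviated together from the means of their groups with an r of 0.196 to 0.211 (COLO858) and 0.0628 to 0.113 (MMACSF). With the replicate number as a block, 5, 5 and 3 members were called in COLO858 at 24 h, 48 h and between the times, 3 and 2 in MMACSF at 24 h and 48 h, and 2 and 1 for the line differences. TFAM passed in all 4 comparisons with DMSO (adjusted p = 0.00291 and 0.00240 in COLO858, 0.00977 and 0.00735 in MMACSF). The share of all genes called rose with the block from 9.82% to 45.0% at 24 h and from 9.47% to 43.7% at 48 h in COLO858, and from 5.83% to 26.1% and 8.83% to 30.1% in MMACSF. It was 17.96% between the times in COLO858 and 17.6% and 25.3% for the line differences. With no minimum these shares were 5.59%, 5.46%, 2.95% and 4.75%, and with only the groups compared 5.42%, 3.95%, 1.89% and 4.64%.

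Of 489 single-gene values under alternatives that kept all libraries, 454 kept both their sign and their side of the threshold. With the sign kept, 6 moved outside the threshold and 24 moved inside it. The other 5 turned sign, all after rescaling and all of differences that had not passed. These were PPARGC1A at 24 h in MMACSF (-0.0612), NRF1 at 48 h in MMACSF (-0.0425), TFAM between the times in COLO858 (0.0166), ESRRA between the times in MMACSF (0.0078) and GABPA in the line difference at 48 h (0.0088). Leaving out 1 library turned the sign of 35 of 480 values, none of which had passed. At 48 h in COLO858 PPARGC1A ran from -0.27 to 0.12 and GABPA from -0.10 to 0.46. Between the times there, GABPA ran from -0.38 to 0.18 and TFAM from -0.35 to 0.25. In MMACSF PPARGC1A at 24 h ran from -0.20 to 0.28, and at 48 h NRF1 from -0.10 to 0.15 and GABPA from -0.0457 to 0.48. Between the times there, ESRRA ran from -0.28 to 0.25, NRF1 from -0.24 to 0.0162, GABPA from -0.45 to 0.0707 and TFAM from -0.27 to 0.19. The line difference of GABPA ran from -0.39 to 0.14 at 24 h and -0.32 to 0.25 at 48 h, and that of TFAM from -0.35 to 0.20 and -0.38 to 0.22.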
